A study of Neurospora crassa with 42 samples.

Results

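The 4 beta-glucosidase genes gh1-1 (NCU00130), gh3-4 (NCU04952), gh3-3 (NCU08755) and gh3-6 (NCU07487) of the filamentous fungus Neurospora crassa were followed by messenger RNA sequencing across 14 groups of mycelia. They were picked out by gene identifier as a named enzyme group, with earlier results of these data known, and are 4 of the 9758 genes in the deposited tables. Each group had 3 libraries, which the labels describe as biological replicates, so the tests measure the spread between these cultures. Mycelia were grown for 16 h in medium with 2% sucrose, washed, and transferred either to a medium lacking any carbon source, here called starvation, or to one with 2% Avicel (microcrystalline cellulose).

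The 6 groups at 4 h comprised wild type (FGSC 2489) in both media, the deletion strains Δclr-1 and Δclr-2, both given Avicel, and the starved strains Δclr-3 and Pccg1-clr-2. The Pccg1-clr-2 strain expresses clr-2 from the promoter of ccg-1, and its genotype label also carries the clr-2 deletion. The 8 groups at 10 h were all on starvation medium. Wild type was joined by strains lacking cre-1 (Δcre-1), os-1 (Δos-1), os-2 (Δos-2) or clr-3 (Δclr-3), and by strains lacking clr-3 together with each of the others (Δcre-1Δclr-3, Δos-1Δclr-3, Δos-2Δclr-3). No group carried Avicel at 10 h, and the 2 times were fitted apart except where they were compared.

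Beta-glucosidases split cellobiose and short cellodextrins, the products of cellulases, into glucose. In N. crassa the family 1 enzyme encoded by gh1-1 works inside the cell on cellodextrins brought in by the transporters CDT-1 and CDT-2, while gh3-4 and gh3-3 encode secreted family 3 enzymes, gh3-4 the major one. A strain lacking gh1-1, gh3-3 and gh3-4 together responds to cellobiose as it does to cellulose. CLR-1 and CLR-2 are transcriptional activators of cellulase genes, CLR-3 represses that programme when cellulose is absent, and CRE-1 is the carbon catabolite repressor. OS-1 is an osmosensing histidine kinase, and OS-2 is the MAP kinase of the osmosensing cascade.

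The genes lie apart on build NC12. The locus of gh1-1 is chromosome III:2730966-2733380, that of gh3-3 is III:5254966-5258478, that of gh3-4 is IV:846341-849048 and that of gh3-6 is I:448859-451692. No other annotated locus overlaps any of them, and the nearest neighbours are 631 bp away for gh1-1 and 2226 bp away for gh3-6.

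The deposited unit is FPKM, a fragment count divided by transcript length and library size, so levels can be set side by side between genes. The deposited bounds of each estimate spanned a median of 5.01% to each side for gh1-1, 2.50% for gh3-3, 2.98% for gh3-4 and 15.5% for gh3-6, the lowest of the 4, and no member was listed at 0 in any library. At 10 h the libraries correlated with their own group at r from 0.991 to 0.998, and their relative depth, read from the width of the bounds, spanned 1.52-fold. At 4 h the r went down to 0.896 and the depth spanned 9.38-fold, and both low ends belong to replicate 1 of wild type on Avicel. Each deleted gene was low in its own strain, for example clr-3 at most 1.42 FPKM where deleted and at least 21.5 FPKM elsewhere. In Pccg1-clr-2, clr-2 stood at 207 to 363 FPKM. A gene was called at an adjusted p under 0.05 in limma, fitted to all tested genes on log2(FPKM + 1), if its log2 fold change was also 1 or more in size. Log2 fold changes are followed by ± the standard error of that fit, and this scale understates changes of low genes. The median log2 change of all genes was not 0 but lay between -0.45 and 0.37 over the comparisons. Where rescaling each library by its median ratio moved the balance of calls, the rescaled shares are given. How many of all genes had groups without overlap was not counted, so lack of overlap is given for the members alone. In bulk mycelium, fewer cells expressing a gene and less RNA per cell cannot be told apart.

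**Figure D1:**
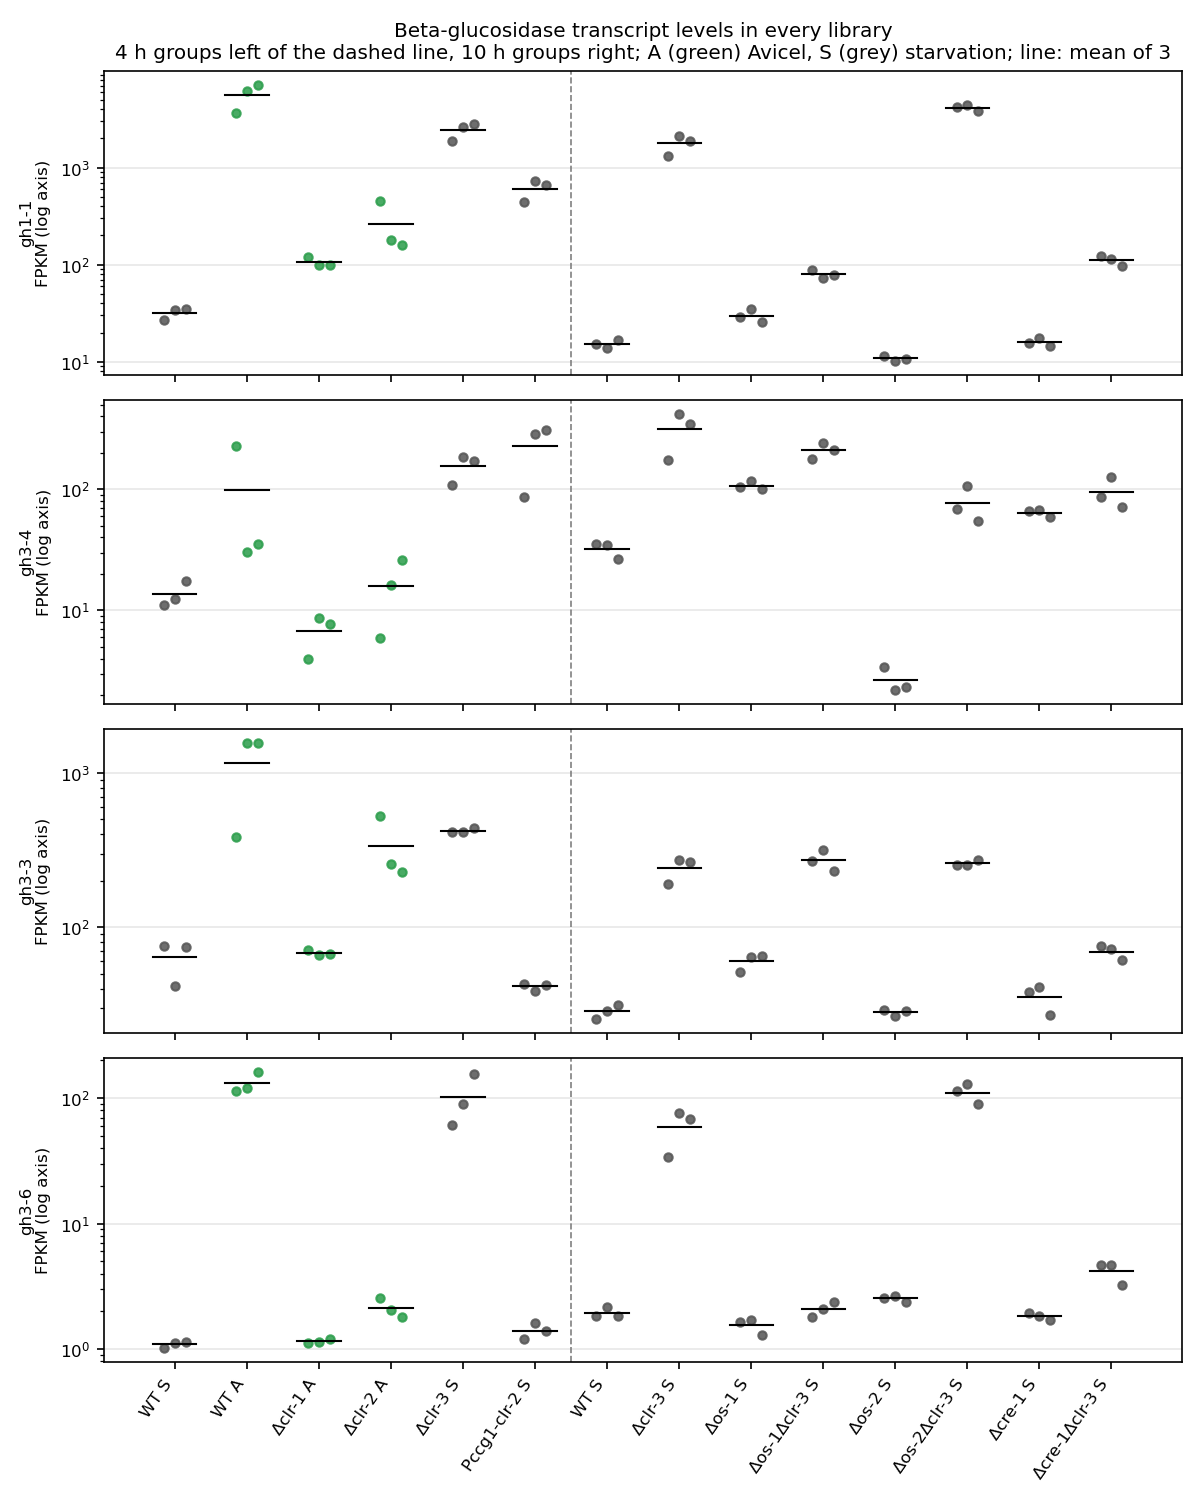
FPKM (log axis) of each gene in all 42 libraries, with a dot per library and a line at the mean of 3, 4 h groups to the left of the dashed line and 10 h groups to the right, Avicel in green and starvation in grey. Both gh1-1 and gh3-6 are low in the os-1 and cre-1 double mutants relative to Δclr-3. gh3-3 stays at 231 to 314 FPKM in Δos-1Δclr-3 but is also low, at 60.9 to 75.2 FPKM, in Δcre-1Δclr-3.

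Cellulose raised all 4 genes in wild type at 4 h, against 3.05% of all genes called higher and 7.47% called lower (4.84% and 2.26% after rescaling). On starvation medium gh1-1 stood at 26.9, 34.5 and 34.7 FPKM, and on Avicel at 3686, 6212 and 7067 FPKM. The groups lay far apart, the log2 fold change was 7.38 ± 0.34 (limma adjusted p = 1.65e-10), and on Avicel gh1-1 had the 8th highest mean of 9746 genes. The lowest member was gh3-6, with 1.01, 1.11 and 1.15 FPKM on starvation medium and 114, 121 and 161 FPKM on Avicel. Every Avicel library was far above every starved one, with a log2 fold change of 5.98 ± 0.24 (limma adjusted p = 3.21e-11).

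The secreted enzymes' genes differed more among the Avicel libraries. For gh3-3 the starved cultures held 75.3, 41.7 and 74.2 FPKM and the Avicel cultures 384, 1553 and 1556 FPKM. The groups did not overlap, although replicate 1 on Avicel was well below the other two, and the log2 fold change was 3.96 ± 0.43 (limma adjusted p = 8.24e-06). For gh3-4 the order was turned round: replicate 1 on Avicel stood at 228 FPKM and the others at 30.4 and 35.3 FPKM, against 11.0, 12.3 and 17.5 FPKM on starvation medium. The groups did not overlap, and the log2 fold change was 2.16 ± 0.67 (limma adjusted p = 0.0201). This call rested on single libraries: without replicate 1 on Avicel the change was 1.24 (adjusted p = 0.103), and without replicate 1 of the starved group it was 2.03 (adjusted p = 0.0573). Fitted on the compared groups alone, the adjusted p of gh3-4 was 0.120. Expression of 4 conidiation markers (eas, con-6, con-8 and con-10, genes of spore formation) summed to 7889 to 15540 FPKM in starved wild type and 1387 to 2425 FPKM on Avicel, all 4 were called lower, none was at 0, and their part in the result was not tested.

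Of the other 5 genes with family 3 symbols, gh3-7 (log2 fold change 3.35) and gh3-8 (3.28) were called higher on Avicel and gh3-1, gh3-2 and gh3-5 were not called. Among 13 genes of cellulose breakdown and cellodextrin uptake, 12 were called higher, with cbh-1 (a cellobiohydrolase) at 9.56, gh6-2 (another) at 9.11, cdt-1 at 5.20 and cdt-2 at 6.43. The exception was gh7-4 at 0.69. The median log2 change was 4.97 over the 4 members and -0.39 over all genes tested.

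Loss of either activator lowered all 4 genes on Avicel. Without clr-1, 2.48% of all genes were called lower and 5.84% higher (3.80% and 1.84% after rescaling); without clr-2, 2.21% were called lower and 4.23% higher (3.34% and 0.810% after rescaling). Both comparisons use the same wild type Avicel libraries. In Δclr-1, gh1-1 stood at 121, 100.0 and 100.0 FPKM, and in Δclr-2 at 453, 179.9 and 159.9 FPKM. Both strains were below every wild type library, and the log2 fold changes were -5.66 ± 0.34 and -4.53 ± 0.34 (limma adjusted p = 6.61e-09 and 1.40e-07).

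gh3-6 was near its starved level: 1.12, 1.15 and 1.20 FPKM in Δclr-1 and 2.54, 2.03 and 1.81 FPKM in Δclr-2. Both strains lay below every wild type library, with log2 fold changes of -5.93 ± 0.24 (limma adjusted p = 4.27e-11) and -5.40 ± 0.24 (limma adjusted p = 1.33e-10). gh3-4 was at 3.95, 8.64 and 7.69 FPKM in Δclr-1 and 5.95, 16.1 and 25.9 FPKM in Δclr-2. The strains' ranges stayed below wild type's, and the log2 fold changes were -3.10 ± 0.67 (limma adjusted p = 0.00432) and -2.12 ± 0.67 (limma adjusted p = 0.0261). The Δclr-2 call of gh3-4 was lost without replicate 1 of wild type (-1.20, adjusted p = 0.128), without Δclr-2 replicate 1 (-1.58, adjusted p = 0.102) and without Δclr-2 replicate 2 (-2.22, adjusted p = 0.0598). On the compared groups alone the adjusted p of gh3-4 was 0.140 for Δclr-2 and 0.0662 for Δclr-1.

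gh3-3 stood at 71.4, 66.3 and 66.6 FPKM in Δclr-1 and at 522, 255 and 228 FPKM in Δclr-2. Δclr-1 was below every wild type library, while Δclr-2 replicate 1 exceeded wild type replicate 1, so those groups overlapped. The log2 fold changes from wild type were -3.82 ± 0.43 (limma adjusted p = 1.63e-05) and -1.64 ± 0.43 (limma adjusted p = 0.0117). The Δclr-2 call of gh3-3 was lost without Δclr-2 replicate 3 (-1.42, adjusted p = 0.0553) and on the compared groups alone (adjusted p = 0.129).

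Set directly against each other, Δclr-1 and Δclr-2 gave no call for any member, and 0.0968% of all genes were called (8 of 8266, with 111 at an unadjusted p under 0.05). The change nearest to a call was that of gh3-3, 2.18 lower on the log2 scale in Δclr-1 (95% interval -3.09 to -1.27, limma adjusted p = 0.0839). It was called when each group's farthest library was left out (-1.84, adjusted p = 1.73e-05) and after rescaling (-2.14, adjusted p = 0.0324). gh1-1 was also lower in every Δclr-1 library than in any Δclr-2 library, by -1.14 (95% interval -1.86 to -0.41, adjusted p = 1.00). Among the 13 genes of cellulose breakdown and uptake, 12 were called lower than in wild type without clr-1 and 10 without clr-2. Between the mutants themselves, 0 of the 13 were called higher and 0 lower, with a median log2 difference of -0.22.

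Compared with starved wild type, the activator mutants on Avicel were still higher in some members. gh1-1 was 1.71 ± 0.34 higher in Δclr-1 (limma adjusted p = 0.0092), where 1.32% of all genes were called higher and 0.665% lower (1.48% and 0.448% after rescaling). In Δclr-2, gh1-1 was 2.85 ± 0.34 higher (limma adjusted p = 0.000115) and gh3-3 was 2.32 ± 0.43 higher (limma adjusted p = 0.00619), where 1.37% were called higher and 0.399% lower. gh3-4 and gh3-6 were called in neither strain, with log2 changes of -0.94 and 0.04 in Δclr-1 and 0.04 and 0.57 in Δclr-2. The family 3 genes gh3-7 and gh3-8 were called higher in both mutants, at 2.45 and 4.02 in Δclr-1 and 2.12 and 3.59 in Δclr-2.

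**Figure D2:**
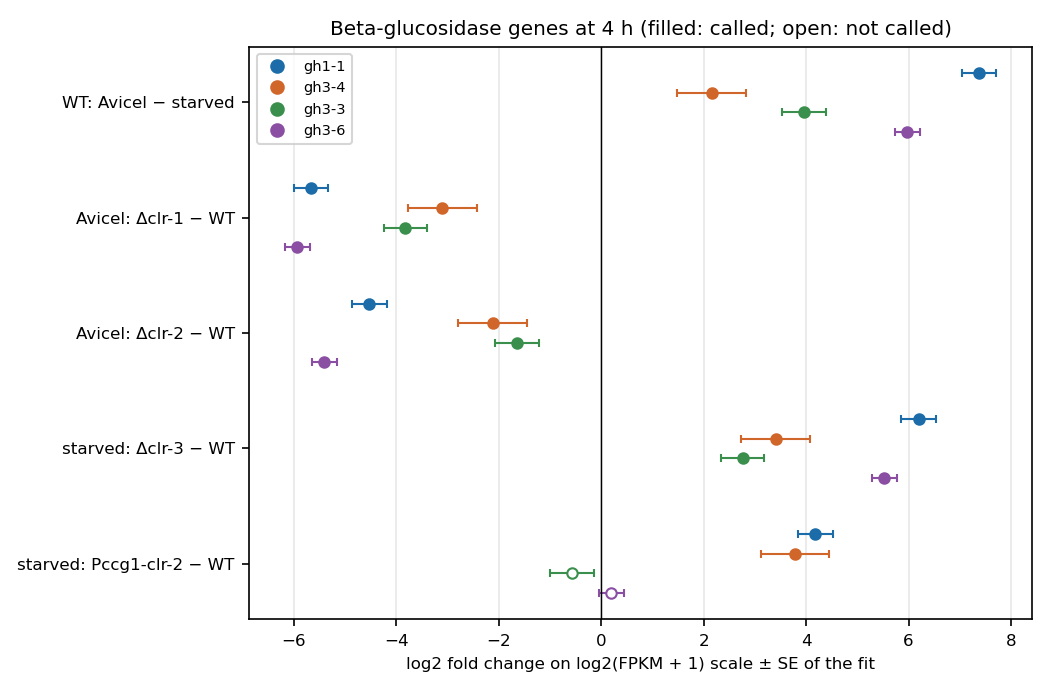
Log2 fold change (x axis, on the log2(FPKM + 1) scale, bars ± SE of the fit) of the 4 genes in 5 comparisons at 4 h, filled where called. All 4 genes lie right of 0 on Avicel and without clr-3, while only gh1-1 and gh3-4 do so as filled points in Pccg1-clr-2.

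Loss of clr-3 raised all 4 genes without any carbon source at 4 h, where 3.16% of all genes were called higher and 7.45% lower (4.23% and 4.12% after rescaling). gh1-1 reached 1882, 2611 and 2825 FPKM, gh3-6 reached 60.8, 90.4 and 157 FPKM, and each was above every starved wild type library. The log2 fold changes were 6.20 ± 0.34 for gh1-1 (limma adjusted p = 3.04e-09) and 5.53 ± 0.24 for gh3-6 (limma adjusted p = 1.65e-10). gh3-4 reached 109, 184 and 173 FPKM (3.41 ± 0.67, limma adjusted p = 0.00184) and gh3-3 reached 412, 416 and 440.1 FPKM (2.76 ± 0.43, limma adjusted p = 0.000352). No member's groups overlapped, in a comparison where 3445 of 8267 genes had an unadjusted limma p under 0.05.

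Forced expression of clr-2 in starved mycelium raised gh1-1 and gh3-4 and called neither gh3-3 nor gh3-6, with 2.76% of all genes called higher and 7.73% lower (4.03% and 3.46% after rescaling). In Pccg1-clr-2, gh1-1 stood at 443, 719 and 658 FPKM, a change of 4.18 ± 0.34 from starved wild type (limma adjusted p = 2.48e-07). gh3-4 stood at 86.6, 286 and 306 FPKM, with replicate 1 lower than the other two, a change of 3.78 ± 0.67 (limma adjusted p = 0.000689). Both genes were above every wild type library.

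gh3-3 stood at 43.2, 38.9 and 42.0 FPKM in Pccg1-clr-2, overlapping wild type at the lower end of its range (-0.56, 95% interval -1.47 to 0.34, limma adjusted p = 0.335). gh3-6 stood at 1.20, 1.60 and 1.39 FPKM, each library just above wild type (0.20, 95% interval -0.32 to 0.71, limma adjusted p = 0.564). In the same strain 12 of the 13 genes of cellulose breakdown and uptake were called higher, with gh45-1 (an endoglucanase) at 7.79 and cdt-2 at 2.39, the exception being ndvB. The starved comparisons of Δclr-3 and Pccg1-clr-2 share the wild type libraries.

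Set against Δclr-3 directly, Pccg1-clr-2 was lower in gh1-1 by -2.01 ± 0.34 (limma adjusted p = 0.000381), in gh3-3 by -3.32 ± 0.43 (limma adjusted p = 3.32e-05) and in gh3-6 by -5.33 ± 0.24 (limma adjusted p = 1.14e-09), with no overlap. Of all genes, 7.97% were called lower and 5.31% higher (6.16% and 6.44% after rescaling). For gh3-4 the groups overlapped and the difference was 0.38 (95% interval -1.05 to 1.80, adjusted p = 0.698). Conidiation markers summed to 7889 to 15540 FPKM in starved wild type, 4883 to 7752 FPKM in Δclr-3 and 3962 to 11390 FPKM in Pccg1-clr-2, none at 0, and their part in these results was not tested.

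The starved mutants did not reach the wild type Avicel level in gh1-1. Its level in Δclr-3 was below every Avicel library (-1.18 ± 0.34, limma adjusted p = 0.0144), with 4.42% of genes called lower and 7.10% higher (6.70% and 4.57% after rescaling). gh3-3 was also called lower there (-1.20 ± 0.43, limma adjusted p = 0.0388), although the groups overlapped through replicate 1 on Avicel. The gh1-1 call was lost without Δclr-3 replicate 1 (-1.004, adjusted p = 0.0659) or replicate 3 on Avicel (-0.99, adjusted p = 0.0569), and the gh3-3 call without any 1 of the Δclr-3 libraries or without replicate 2 or 3 on Avicel (adjusted p from 0.0817 to 0.153). On the compared groups alone the adjusted p was 0.0533 for gh1-1 and 0.163 for gh3-3. In Pccg1-clr-2, gh1-1, gh3-3 and gh3-6 were called lower than on Avicel, by -3.20, -4.53 and -5.78, with 5.15% of genes called lower and 4.69% higher (6.33% and 3.69% after rescaling). For gh3-4 neither mutant was called against Avicel, with log2 differences of 1.25 for Δclr-3 (adjusted p = 0.161) and 1.63 for Pccg1-clr-2 (adjusted p = 0.0869). Without replicate 1 on Avicel, gh3-4 was called higher than on Avicel in Δclr-3 (2.17, adjusted p = 0.00663) and in Pccg1-clr-2 (2.55, adjusted p = 0.00439), and in the latter also without Pccg1-clr-2 replicate 1 (2.21, adjusted p = 0.0336). Of the 4 conidiation markers, 3 were called higher than on Avicel in Δclr-3 and 4 in Pccg1-clr-2, their sums were 4883 to 7752 FPKM and 3962 to 11390 FPKM against 1387 to 2425 FPKM on Avicel, none was at 0, and their part was not tested.

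At 10 h of starvation the loss of clr-3 again raised all 4 genes, with 2.93% of all genes called higher and 2.62% lower (3.99% and 0.824% after rescaling). gh1-1 went from 15.1, 13.9 and 16.7 FPKM in wild type to 1329, 2136 and 1899.7 FPKM, a change of 6.76 ± 0.14 (limma adjusted p = 4.47e-19). gh3-6 went from 1.82, 2.16 and 1.84 FPKM to 34.0, 75.5 and 67.7 FPKM, a change of 4.28 ± 0.20 (limma adjusted p = 2.50e-13). In both, replicate 1 of Δclr-3 was the lowest of its group and still above every wild type library.

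The genes of the secreted enzymes rose as well. gh3-4 went from 35.3, 35.0 and 26.6 FPKM to 175, 417 and 347 FPKM, 3.16 ± 0.26 (limma adjusted p = 3.27e-09). gh3-3 went from 25.3, 28.6 and 31.6 FPKM to 190.2, 273 and 265 FPKM, 3.03 ± 0.15 (limma adjusted p = 7.94e-13). Again no groups overlapped, in a comparison where 6040 of 8013 genes had an unadjusted limma p under 0.05. The clr-3 effect was not called as different between 4 h and 10 h for any member. Of all genes, 6.42% were called either way, 3.3% higher and 3.13% lower (3.97% and 2.41% after rescaling). The largest difference among the members was -1.25 for gh3-6 (95% interval -2.28 to -0.22, limma adjusted p = 0.0681). It was called without replicate 1 of Δclr-3 at 4 h (-1.57, adjusted p = 0.0270). Within Δclr-3 no member was called between the times, with 19.5% of all genes called either way and gh3-4 at 0.95 (adjusted p = 0.0195), which passed the threshold without replicate 2 (1.09) or 3 (1.05) at 4 h or replicate 1 at 10 h (1.33), as gh3-6 did without replicate 1 at 4 h (-1.08). In wild type itself, gh1-1 was lower at 10 h than at 4 h by -1.02 (adjusted p = 0.00102), gh3-3 was lower by -1.09 (adjusted p = 0.00112) and gh3-4 was higher by 1.20 (adjusted p = 0.00618), against 18.2% of all genes called either way. The gh1-1 call was lost without replicate 2 at 10 h or replicate 2 or 3 at 4 h (each -0.96), and that of gh3-3 without replicate 1 (-0.95) or 3 (-0.96) at 4 h. The 2 times may also differ in how the libraries were made, which cannot be told apart from time.

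Alone, loss of os-1 gave 2 members called higher, loss of os-2 gave 1 called lower and loss of cre-1 gave 0. These comparisons share the wild type libraries. Without os-1, gh3-4 rose to 105, 117 and 101 FPKM, above every wild type library (1.71 ± 0.26, limma adjusted p = 2.43e-05). Of all genes, 2.67% were called either way there, 1.58% higher and 1.09% lower. gh3-3 rose to 51.4, 64.4 and 65.5 FPKM (1.06 ± 0.15, limma adjusted p = 9.79e-06), a call near the threshold that was lost without wild type replicate 1 (0.98) or Δos-1 replicate 3 (0.99). gh1-1, at 28.6, 35.3 and 25.7 FPKM, was also above every wild type library but missed the fold threshold (0.92, adjusted p = 2.12e-05), passing it without Δos-1 replicate 3 (1.02) or after rescaling (1.02), and gh3-6 was at 1.63, 1.70 and 1.30 FPKM (-0.21, adjusted p = 0.400). Conidiation markers summed to 5722 to 8762 FPKM in wild type and 13020 to 19900 FPKM in Δos-1, none at 0. Of the 4, eas was called higher (1.68) and con-10 lower (-1.05), and their part in the result was not tested.

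Without os-2, gh3-4 fell to 3.39, 2.19 and 2.33 FPKM, the lowest level of this gene in the series and below every wild type library (-3.20 ± 0.26, limma adjusted p = 9.77e-10), with 6.26% of all genes called lower and 4.48% higher (3.79% and 5.99% after rescaling). The others were not called: gh1-1 was at 11.5, 10.1 and 10.8 FPKM (-0.46), gh3-3 at 29.0, 26.7 and 28.8 FPKM (-0.01, 95% interval -0.32 to 0.30) and gh3-6 at 2.56, 2.67 and 2.38 FPKM (0.27). Set side by side, Δos-1 exceeded Δos-2 in gh3-4 by 4.91 ± 0.26 (limma adjusted p = 1.77e-12), in gh1-1 by 1.38 ± 0.14 (limma adjusted p = 2.88e-08) and in gh3-3 by 1.07 ± 0.15 (limma adjusted p = 2.51e-06), with 5.24% of all genes called higher and 3.83% lower (4.03% and 4.62% after rescaling). The gh3-3 call was lost after rescaling (0.94). In Δos-2, conidiation markers summed to 19560 to 21190 FPKM, none at 0, eas was called higher than in wild type (2.09) and con-10 lower (-2.62), and their part in the result was not tested.

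Without cre-1 no member was called in limma, with 5.97% of all genes called either way (2.85% higher and 3.12% lower, 3.66% and 2.16% after rescaling). An unadjusted limma p under 0.05 was reached by 5507 of 8013 genes. The change of gh3-4, at 65.9, 67.3 and 59.4 FPKM, was 0.98 (adjusted p = 0.00242), with every library above wild type. It passed the threshold without wild type replicate 1 (1.05), wild type replicate 2 (1.04) or Δcre-1 replicate 3 (1.03), and after rescaling. gh1-1 was at 15.7, 17.7 and 14.6 FPKM, gh3-3 at 38.3, 40.8 and 27.1 FPKM and gh3-6 at 1.95, 1.85 and 1.72 FPKM, and all 3 overlapped wild type. In Δcre-1 the conidiation markers summed to 9659 to 15900 FPKM, none at 0, eas (1.33) and con-6 (1.14) were called higher than in wild type and con-10 lower (-1.91), and their part was not tested.

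In the double mutants the members differed in which were called. Removing os-1 from Δclr-3 lowered gh1-1 and gh3-6 and left gh3-4 and gh3-3 uncalled, with 2.53% of all genes called lower and 3.11% higher. In Δos-1Δclr-3, gh1-1 stood at 87.6, 73.6 and 78.1 FPKM, below every Δclr-3 library (-4.44 ± 0.14, limma adjusted p = 2.48e-15). gh3-6 stood at 1.80, 2.10 and 2.38 FPKM, overlapping wild type and far below every Δclr-3 library (-4.21 ± 0.20, limma adjusted p = 3.55e-13).

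gh3-4 was at 179, 242 and 211 FPKM and overlapped Δclr-3 (-0.49, 95% interval -1.03 to 0.05, limma adjusted p = 0.122). gh3-3 was at 269, 314 and 231 FPKM and also overlapped it (0.17, 95% interval -0.14 to 0.48, limma adjusted p = 0.359). Of 12 tested genes of cellulose breakdown and uptake, 11 were called lower in Δos-1Δclr-3 than in Δclr-3, with cbh-1 at -6.96, gh6-2 at -7.24 and cdt-1 at -2.23. The log2 ratio of gh1-1 to gh3-3 was -1.76 ± 0.29 (SD, n = 3) in Δos-1Δclr-3 and 2.87 ± 0.09 (SD, n = 3) in Δclr-3. An exact two-sided permutation test gave p = 0.10, the smallest possible with 3 against 3, and 0.12 after adjustment over 18 such ratios. Of the 18, 15 were without overlap and had these same values, so the test does not single out this pair. The clr-2 transcript was called lower in Δos-1Δclr-3 than in Δclr-3 (-3.23). Of the 5 listed regulators (clr-1, clr-2, clr-3, cre-1 and xlr-1), 4 were tested there, 2 were called lower and 1 higher. The part of the regulators in the result was not tested. The conidiation markers summed to 16730 to 20550 FPKM in Δos-1Δclr-3 against 4636 to 5071 FPKM in Δclr-3, none at 0. Of the 4, eas was called higher (2.82) and con-10 lower (-1.81), and their part was not tested.

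Removing os-2 from Δclr-3 raised gh1-1 and lowered gh3-4, with 2.72% of all genes called higher and 5.74% lower (4.59% and 2.73% after rescaling). gh1-1 reached 4214, 4436 and 3796 FPKM, above every Δclr-3 library (1.24 ± 0.14, limma adjusted p = 9.94e-08), and 0.99 without each group's farthest library. gh3-4 stood at 69.2, 106 and 54.8 FPKM, below every Δclr-3 library (-1.98 ± 0.26, limma adjusted p = 8.90e-07). gh3-6 was at 113, 130.1 and 89.4 FPKM, above every Δclr-3 library but just under the fold threshold (0.96, adjusted p = 0.00018), and passed it without Δclr-3 replicate 2 (1.17), Δclr-3 replicate 3 (1.09) or Δos-2Δclr-3 replicate 3 (1.10), and after rescaling (1.28). gh3-3, at 254, 253.5 and 274 FPKM, overlapped Δclr-3 (0.12, adjusted p = 0.471). Of the 12 tested genes of cellulose breakdown and uptake, 8 were called higher. In Δos-2Δclr-3 the conidiation markers summed to 7638 to 10630 FPKM, none at 0, eas alone of the 4 was called against Δclr-3 (1.63), and their part was not tested.

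Removing cre-1 from Δclr-3 lowered all 4 genes, with 10.1% of all genes called lower and 4.48% higher (4.11% and 7.96% after rescaling). gh1-1 fell to 124, 116 and 98.0 FPKM (-3.96 ± 0.14, limma adjusted p = 9.23e-15) and gh3-6 to 4.65, 4.67 and 3.23 FPKM (-3.47 ± 0.20, limma adjusted p = 3.21e-12). gh3-4 fell to 86.4, 126 and 71.1 FPKM (-1.67 ± 0.26, limma adjusted p = 5.31e-06) and gh3-3 to 75.2, 72.5 and 60.9 FPKM (-1.77 ± 0.15, limma adjusted p = 7.19e-10). No member's libraries overlapped those of Δclr-3, in a comparison where 6556 of 8012 genes had an unadjusted limma p under 0.05. Of the 12 tested genes of cellulose breakdown and uptake, 10 were called lower. All 3 regulators tested there were also called lower, and their part was not tested. Conidiation markers summed to 8070 to 10730 FPKM in Δcre-1Δclr-3 against 4636 to 5071 FPKM in Δclr-3, none at 0. Of the 4, eas (1.502) and con-8 (1.14) were called higher and con-10 lower (-2.86), and their part was not tested.

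**Figure D3:**
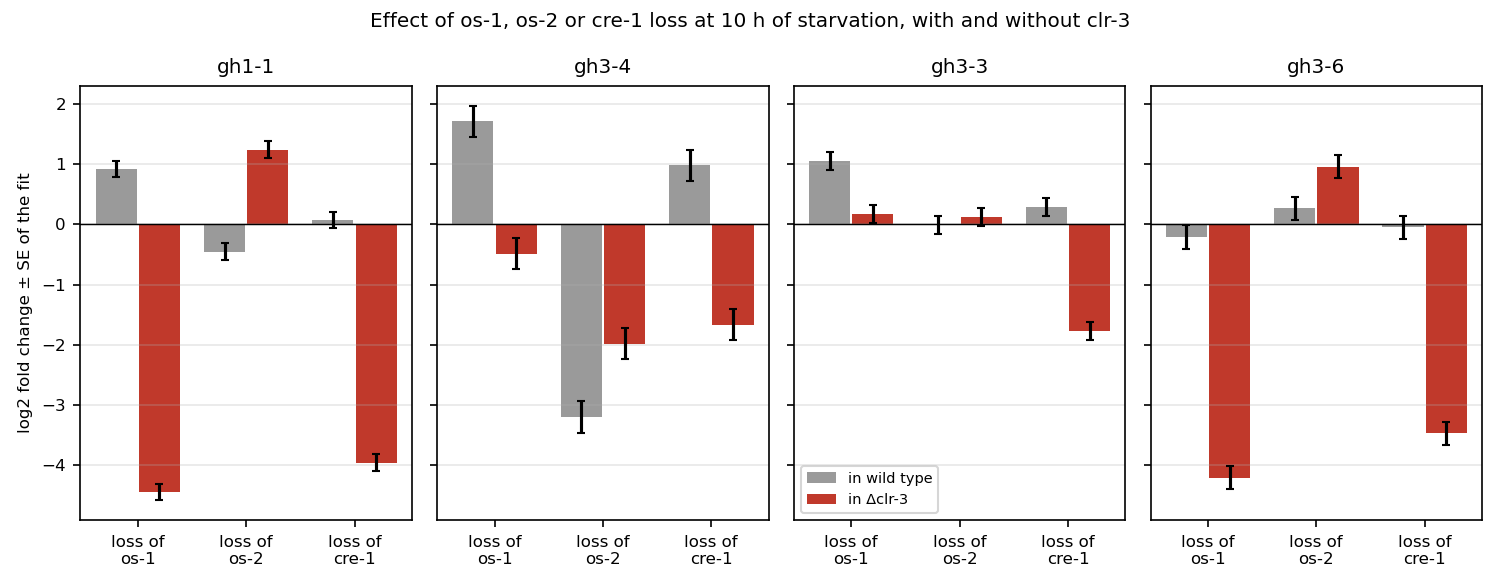
Log2 fold change (y axis, ± SE of the fit) on deletion of os-1, os-2 or cre-1 at 10 h of starvation, in wild type (grey) and in Δclr-3 (red), with a panel per gene. The red and grey bars of gh1-1 differ by -5.36 for os-1 and by -4.03 for cre-1, while those of gh3-3 for os-2 both sit near 0.

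The effect of a second deletion in Δclr-3 was set against its effect in wild type for each gene. For os-1 this difference was called for gh1-1 (-5.36 ± 0.19, limma adjusted p = 4.95e-14), gh3-6 (-3.99 ± 0.28, limma adjusted p = 1.01e-09) and gh3-4 (-2.20 ± 0.37, limma adjusted p = 0.000232), with 1.61% of all genes called lower and 1.5% higher. For gh3-3 it was -0.89 (adjusted p = 0.00407) and missed the fold threshold, passing it without Δclr-3 replicate 1 (-1.05). For cre-1 all 4 genes were called, from -2.06 for gh3-3 to -4.03 for gh1-1, with 4.23% called lower and 2.63% higher (2.91% and 3.99% after rescaling). In starved wild type gh3-6 stood at only 1.82 to 2.16 FPKM, which left little room for a fall there. Its differences for os-1 and cre-1 therefore cannot tell a dependence on clr-3 from this low starting level. For os-2, gh1-1 (1.69 ± 0.19, limma adjusted p = 1.62e-06) and gh3-4 (1.22 ± 0.37, limma adjusted p = 0.0121) were called, with 1.95% called higher and 2.67% lower. The os-2 call of gh3-4 was lost without Δclr-3 replicate 1 (0.85) or Δos-2Δclr-3 replicate 2 (0.96), and the value reversed to -0.12 at a pseudocount of 10. Loss of os-2 lowered gh3-4 both in wild type (-3.20) and in Δclr-3 (-1.98), so the positive difference is a smaller fall.

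Read the other way, deleting clr-3 from Δos-2 raised all 4 genes, gh1-1 by 8.45 ± 0.14 (limma adjusted p = 9.58e-21) and gh3-6 by 4.97, gh3-4 by 4.38 and gh3-3 by 3.16, with 3.06% of all genes called higher and 4.57% lower (4.74% and 1.55% after rescaling). Deleting it from Δos-1 raised gh3-3 by 2.15 ± 0.15 (limma adjusted p = 3.13e-09) and gh1-1 by 1.40 ± 0.14 (limma adjusted p = 1.32e-07), with 2.17% called higher and 0.836% lower (2.90% and 0.287% after rescaling). In the same comparison gh3-4 was at 0.96 (adjusted p = 0.00334), past the threshold without Δos-1 replicate 2 (1.02) or Δos-1Δclr-3 replicate 1 (1.07) and after rescaling (1.16), and gh3-6 at 0.28 (adjusted p = 0.218), and cbh-1 was at -0.06. Deleting it from Δcre-1 raised gh1-1 by 2.73 ± 0.14 (limma adjusted p = 7.79e-13), with 3.07% called higher and 11.1% lower (6.24% and 1.85% after rescaling). gh3-3 (0.97), gh3-6 (0.86) and gh3-4 (0.51) were under the fold threshold there, the median of all genes was -0.45, and all 4 genes were called after rescaling. gh3-3 also passed without Δcre-1 replicate 1 (1.04), Δcre-1 replicate 2 (1.08) or Δcre-1Δclr-3 replicate 3 (1.06). Between the double mutants, Δos-1Δclr-3 exceeded Δos-2Δclr-3 in gh3-4 by 1.49 and was lower in gh1-1 by -5.68 and in gh3-6 by -5.16, while gh3-3 differed by 0.05 (95% interval -0.26 to 0.36), with 6.84% of all genes called higher and 3.12% lower (4.04% and 4.81% after rescaling).

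Ranked by mean FPKM, the groups fell in a different order for each gene. The mean of gh1-1 ran from 10.8 FPKM in Δos-2 to 5655 FPKM in wild type on Avicel, 523-fold, and that of gh3-6 from 1.09 FPKM in starved wild type at 4 h to 132 FPKM on Avicel, 121-fold. gh3-4 spanned 119-fold, from 2.64 FPKM in Δos-2 to 313 FPKM in Δclr-3 at 10 h. At 4 h its mean on Avicel was below those of Pccg1-clr-2 and Δclr-3, but these groups overlapped and no difference between them was called in the reported fit. gh3-3 spanned the least, 41.3-fold, from 28.2 FPKM in Δos-2 to 1164 FPKM on Avicel. At 10 h the 3 highest groups of gh3-3, Δos-1Δclr-3, Δos-2Δclr-3 and Δclr-3, overlapped each other, and so did its lowest neighbours Δcre-1, wild type and Δos-2. For gh1-1 only the neighbours Δcre-1 and wild type overlapped at 10 h, and at 4 h only Pccg1-clr-2 and Δclr-2.

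**Figure D4:**
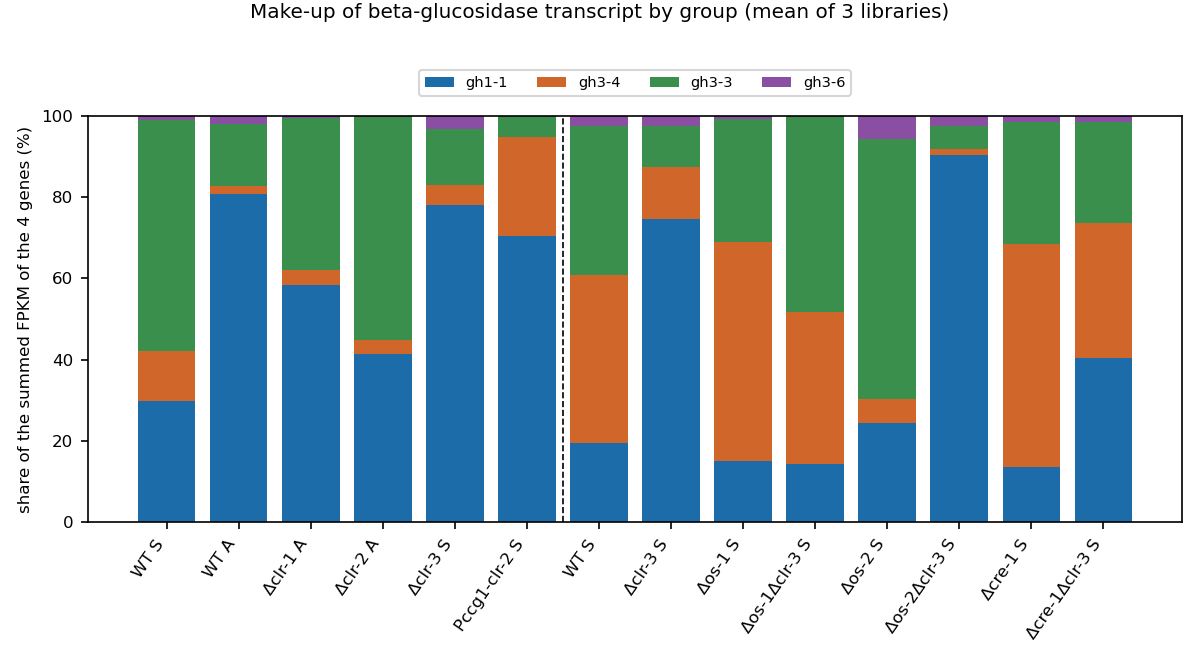
Mean share (%) of the summed FPKM of the 4 genes taken by each, over 3 libraries per group, with the 4 h groups left of the dashed line. gh1-1 holds 80.7% in wild type on Avicel and 90.3% in Δos-2Δclr-3 but 14.3% in Δos-1Δclr-3.

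The share of each gene in the summed beta-glucosidase transcript differed between groups. The 4 genes summed to a mean of 7049 FPKM in wild type on Avicel, 4596 FPKM in Δos-2Δclr-3, 77.9 FPKM in wild type at 10 h and 44.2 FPKM in Δos-2. gh1-1 took 80.7% on Avicel, 78.0% in Δclr-3 at 4 h and 29.7% in starved wild type at 4 h. In Δclr-1 on Avicel it took 58.4% of a sum of 183 FPKM, and in Δos-1Δclr-3 14.3% of 564 FPKM. In starved wild type at 10 h gh3-4 held 34.7 to 45.5% and gh3-3 32.7 to 41.1%, which overlapped, with gh3-3 ahead in replicate 3. The mean share of gh3-4 was 41.4% there, 53.9% in Δos-1, 54.8% in Δcre-1 and 5.93% in Δos-2. gh3-3 held 63.8% in Δos-2 and 48.0% in Δos-1Δclr-3, and gh3-6 held at most 5.76%, in Δos-2.

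Over the 14 group means, the Pearson correlation of log2 levels was 0.86 between gh1-1 and gh3-6. It was 0.81 between gh1-1 and gh3-3, 0.75 between gh3-3 and gh3-6, and 0.36 to 0.48 between gh3-4 and each other member. These are descriptions across groups that share strains and media. Among 8245 genes, those most like gh1-1 were gh6-3 (r = 0.945), gh47-3 (0.944) and gh7-1 (0.927), and those most like gh3-6 were NCU04522 (0.956), NCU05863 (0.951) and NCU05574 (0.940). The genes most like gh3-3 were its adjacent locus NCU08756 (0.903), NCU09689 (0.890) and NCU00633 (0.871). Next came msh3 (0.870) and then xlr-1 (0.850), a regulator of xylan-degrading genes. NCU08756 stood at a mean of 18.4 FPKM on Avicel and 1.72 FPKM in starved wild type at 4 h, and at 11.1 FPKM in Δos-1Δclr-3. For gh3-4 the likeness was lower, with NCU02138 (0.865) and NCU00873 (0.857) first.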

How the data were processed

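Per the submitters' processing notes, HISAT2 2.0.5 and Cufflinks 2.2.1 were named; which step each served, and the annotation and strandedness behind the values, were not given in the sources used here. The deposited FPKM values with bounds, made by the authors, came from 42 per-library tables on build NC12; the 42 sample columns of the whole-series table were not used, since its replicate numbers differ. No counts were used, so relative depth was read from the bounds. Of 9758 genes, 12 with an estimate not marked OK were left out. limma 3.58.1 (R 4.3.3) was run on log2(FPKM + 1) for genes averaging 1 FPKM or more in a fit (trend, Benjamini-Hochberg adjustment over all genes), with the 18 libraries at 4 h, the 24 at 10 h and the 12 that bear on time in separate fits. Deleted genes were left out of their own strain's comparisons. There were 29 comparisons. The members and gene lists were chosen with earlier results of these data known. Genes were named as the 4 members, the fixed lists and the 5 genes most correlated with each member. Replicates were compared, and at most 0.0114% of values were identical. Shared replicate numbers were checked for pairing: in 5 of 25 comparisons every same-numbered pair deviated together (r from 0.112 to 0.516). Alternatives were the pseudocounts 0.1 and 10, no filter on low values, no trend, median-ratio rescaling, only the compared groups, the replicate block, and leaving out libraries. RefSeq gives no symbol for clr-3 (NCU05846), clp-1 (NCU05853) and ndvB (NCU09425), whose names are background knowledge.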

Additional observations from a re-analysis of the deposited data

Results flagged for a closer look

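At 10 h of starvation the effect of a second deletion differed with the presence of clr-3 in 9 member values, by limma's test of the difference itself. For os-1 the effect in Δclr-3 minus that in wild type was -5.36 for gh1-1, -3.99 for gh3-6 and -2.20 for gh3-4. For os-2 it was 1.69 for gh1-1 and 1.22 for gh3-4. For cre-1 it was -4.03 for gh1-1, -3.42 for gh3-6, -2.65 for gh3-4 and -2.06 for gh3-3. Of all genes, 1.61% were called lower and 1.5% higher for os-1, and 2.67% lower and 1.95% higher for os-2. For cre-1, 4.23% were called lower and 2.63% higher (2.91% and 3.99% after rescaling). The os-2 value of gh3-4 lost its call without Δclr-3 replicate 1 (0.85) and reversed to -0.12 at a pseudocount of 10. There os-2 loss lowered gh3-4 both in wild type (-3.20) and in Δclr-3 (-1.98). In starved wild type gh3-6 stood at only 1.82 to 2.16 FPKM, which left little room for a fall in that background.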

How the results depend on the processing

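Of 116 member values, 69 were called and 55 of these kept their call and direction under every alternative. Over 1720 alternative values, 39 lost a call, 40 gained one and 1 reversed. No filter and no trend changed none. Moves between 2 and 3 or between 3 and 4 members called are left out of the counts that follow. At a pseudocount of 0.1, 2 members were called on loss of clr-3 in Δcre-1 (1 in the reported fit) and 1 for the clr-3 effect over time (0). At a pseudocount of 10 the calls were 1 for Δos-1 (2), 1 between Δos-1 and Δos-2 (3), 0 between times in wild type (3) and 1 for the os-2 difference (2), where gh3-4 reversed to -0.12. After median-ratio rescaling they were 1 between Δclr-1 and Δclr-2 (0), 1 for Δcre-1 (0), 4 for clr-3 loss in Δcre-1 (1) and 1 for Δclr-3 between times (0). On the compared groups alone they were 2 for Δclr-2 (4) and 0 for starved Δclr-3 against Avicel (2). Without each group's farthest library they were 1 between Δclr-1 and Δclr-2 (0), 1 for os-2 loss in Δclr-3 (2), 1 for the os-2 difference (2), 1 for Δclr-3 between times (0) and 1 for the clr-3 effect over time (0). The cause was not tested.

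With 1 library left out at a time, members called ranged from 0 to 3 for starved Δclr-3 against Avicel, 1 to 2 for Δos-1, 0 to 1 for Δcre-1, 1 to 2 for the os-2 difference, 1 to 2 for clr-3 loss in Δcre-1, 1 to 3 for wild type between times, 0 to 1 for Δclr-3 between times and 0 to 1 for the clr-3 effect over time. The range was 3 to 4 for wild type on Avicel against starvation, Δclr-2, Pccg1-clr-2 against Avicel and the os-1 difference. For os-2 loss in Δclr-3 and clr-3 loss in Δos-1 it was 2 to 3.

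The labels give replicate numbers but do not say that same-numbered cultures were paired. The replicate block, 1 set of terms for a whole fit, changed no member call in the 5 comparisons whose same-numbered libraries deviated together. Elsewhere the block gave 1 member called for starved Δclr-3 against Avicel (2) and 1 for the clr-3 effect over time (0). Low values of gh3-6 carry the widest bounds.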
